A study of Mus musculus with 11 samples.

Results

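The cells described here were splenic macs (SMs) from control mice and from mice in which Zeb2 was deleted, profiled by single-cell RNA sequencing with 1 library per genotype. A barcode was counted as an SM when its unique molecular identifiers (UMIs, each standing for 1 captured transcript) of C1qa, C1qb and C1qc summed to 3 or more. By this rule 3642 of 4474 barcodes were SMs in the control library, hereafter WT (81.4%, exact 95% Clopper-Pearson interval 80.2 to 82.5), and 3292 of 3744 in the library with the deletion, hereafter Zeb2KO (87.9%, 86.8 to 89.0). The 2 spleen libraries are part of a series of 11 libraries and 51712 barcodes that also covers macs of liver, lung, colon and brain. Control mice were Zeb2fl/fl without Cre, and Zeb2KO mice were Fcgr1-crexZeb2fl/fl littermates, so that both groups carried the floxed allele. All mice were on the C57Bl/6 background, of both sexes and 6 to 8 weeks old. From enzymatically digested spleens, live CD45+ cells that were negative for Ly6C, Ly6G and SiglecF and positive for CD64 and F4/80 were sorted. The Cre was inserted at the end of the CD64 gene Fcgr1, and its activity reaches beyond macs to B cells, T cells and conventional dendritic cells, so that the deletion was not limited to SMs. The number of animals behind each library was not given in the sources used here. With 1 library per genotype, the genotype, the library and the animals cannot be told apart, and no test between groups was possible.

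ZEB2 is a zinc-finger transcription factor that binds E-box sequences, mostly as a repressor. It silences epithelial genes when epithelial cells turn mesenchymal and also acts in the development of myeloid and lymphoid cells. SMs of the red pulp clear aged red blood cells from the circulation. They break down the haem with haem oxygenase 1 (Hmox1), export the iron through ferroportin (Slc40a1), carry the adhesion molecule Vcam1 and depend on the transcription factor SPIC.

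The SMs held 9395684 UMIs in WT and 10871106 in Zeb2KO. The median SM had 2219.5 UMIs and 1132 detected genes in WT, and 2752 UMIs and 1322.5 genes in Zeb2KO. The shallowest SM had 833 UMIs in WT and 1021 in Zeb2KO, with 288 SMs under 1000 UMIs in WT and 0 in Zeb2KO. The libraries shared 23 barcodes, 20 of which were SMs in both. Levels are given in CPM, the UMIs of a gene summed over all SMs of a library and scaled to the same total in each library, with an exact Poisson 95% interval where an interval is given. These intervals, and those of shares, cover counting error only and not the variation between mice. A log2 ratio is that of CPM + 1 in Zeb2KO over WT, and a gene was called higher or lower where it was past 2-fold on that scale and reached 20 CPM in the library with the higher level.

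The label of the cells was first set against the red pulp markers. Hmox1 was at 10726 CPM in WT SMs and 9752 CPM in Zeb2KO SMs, Vcam1 at 6355 and 4683 CPM, Slc40a1 at 4542 and 4959 CPM, and Spic at 1516 and 1260 CPM. All 4 markers were abundant in both libraries and none was past 2-fold. After every barcode was thinned to 1500 UMIs, 98.2% of WT SMs and 95.5% of Zeb2KO SMs had a Vcam1 UMI, against 52.8% and 35.1% of B cell barcodes of the same libraries (0 C1q UMIs and at least 3 UMIs of Cd79a and Cd79b). Without thinning, the shares of SMs were 99.1% and 98.5%, and those of B cell barcodes 68.7% and 62.3%. The thinned sets held 2708 and 2712 SMs with median depths of 2738.5 and 3238.5 UMIs before thinning, and 125 and 57 B cell barcodes with median depths of 2221 and 2935 UMIs. Since Vcam1 was also read in many B cell barcodes, shares of other genes are given beside those in B cell barcodes.

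The rule has a threshold, and barcodes on both sides of it were mixed. In WT, Vcam1 was at 1621 CPM in the 258 barcodes with 2 C1q UMIs and at 3134 CPM in the 194 with 3, while the B cell gene Cd79a was at 951 and 624 CPM. In Zeb2KO, Vcam1 was at 1117 CPM in the 148 barcodes with 2 C1q UMIs and at 1786 CPM in the 135 with 3, and Cd79a at 903 and 766 CPM. Summed over all SMs, Cd79a was at 122 CPM in WT and 111 CPM in Zeb2KO, and the whole B cell list at 898 and 790 CPM.

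Zeb2 transcripts themselves did not report the deletion. Zeb2 (chr2:44983632-45117395, minus strand, GRCm38) was at 693 CPM (677 to 710) in WT SMs and 827 CPM (810 to 844) in Zeb2KO SMs, a log2 ratio of 0.25. Reads of this library type lie at the 3′ end of the gene, outside the floxed exon, so that these UMIs do not check whether that exon was lost. Zeb2os, an antisense gene that overlaps Zeb2, was at 39.3 and 32.0 CPM. Its paralog Zeb1 was at 8.30 CPM in WT and 17.9 CPM in Zeb2KO, under the minimum level for a call. How many of the sorted Zeb2KO SMs had lost 1 or both alleles cannot be read from the Zeb2 UMIs and was not determined here. The paper grouped the spleen cells of these mice into presumed Zeb2+/- cells and Zeb2-/- cells. Levels given here for Zeb2KO SMs are averages over all of them.

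Across all genes, 6157 reached 20 CPM in 1 of the libraries, and 187 of them (3.04%) were past 2-fold. Of these, 130 (2.11%) were higher in Zeb2KO SMs and 57 (0.926%) were lower, while the median log2 ratio of all genes considered was -0.03. These shares and this median are the background for the counts and medians of every gene list given here for SMs. For 95 of the higher and 44 of the lower genes the counting interval of the ratio lay wholly past 2-fold. Past 4-fold were 38 of the higher and 13 of the lower genes. In the barcodes that the rule left out, 43 of the 130 and 24 of the 57 genes were past 2-fold in the same direction. Those barcodes were fewer, 832 in WT and 452 in Zeb2KO. The share of all genes past 2-fold in them was not computed, so that these counts have no background. The scatter of all genes shows the genes called higher over a wide range of WT levels, among them Meg3 at 5.43 CPM, Slpi at 1032 CPM and Cd74 at 2276 CPM.

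**Figure D1:**
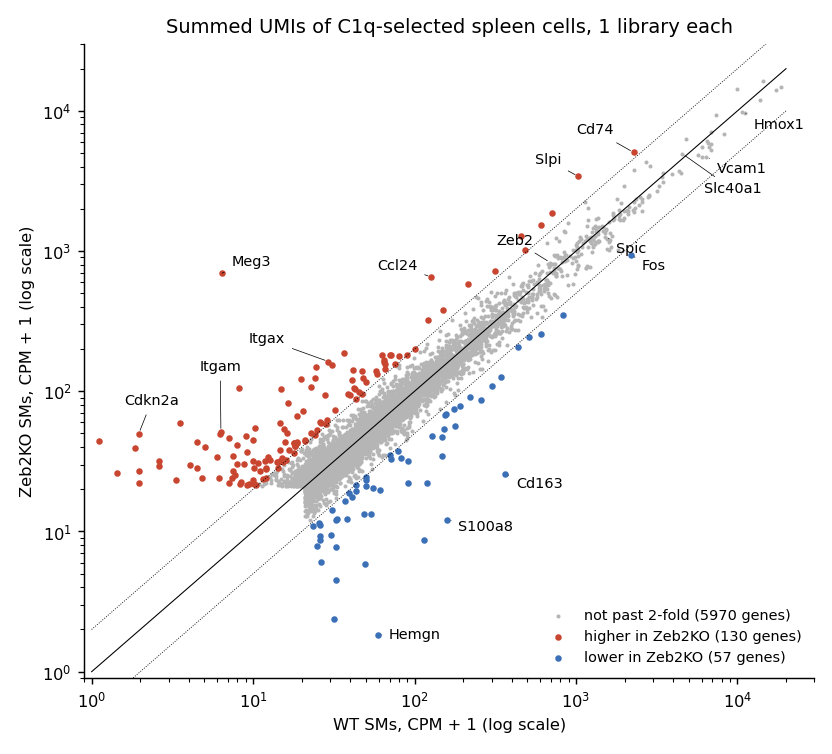
Each point is 1 of 6157 genes, with CPM + 1 of the summed UMIs of WT SMs on the x axis and of Zeb2KO SMs on the y axis, both on log scales, and the dotted lines mark 2-fold. The 130 genes called higher (red) include Meg3 at 5.43 and 695 CPM, the 57 called lower (blue) include Cd163 at 362 and 24.7 CPM, and the red pulp markers Hmox1, Vcam1, Slc40a1 and Spic lie between the lines.

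On the scale of CPM + 1 the largest ratio belonged to Meg3, a maternally expressed long noncoding RNA of the imprinted Dlk1-Dio3 region (chr12:109541001-109571726, plus strand, GRCm38). Meg3 was at 5.43 CPM (4.04 to 7.14) in WT SMs and 695 CPM (680 to 711) in Zeb2KO SMs, a log2 ratio of 6.76. A Meg3 UMI was present in 25 of 3642 WT SMs (0.686%) and in 1701 of 3292 Zeb2KO SMs (51.7%), and 6 and 951 of them had 3 or more, with a highest count of 7 and 32 in a cell. After thinning, the shares were 0.332% and 42.9% in SMs and 0.800% and 5.26% in B cell barcodes. Meg3 was thus read in many Zeb2KO SMs and seldom in WT SMs, and its share in Zeb2KO SMs was above that in B cell barcodes of the same library. Mirg, a noncoding RNA further along the same imprinted region (chr12:109729764-109749460), had 0 UMIs in WT SMs and was at 15.9 CPM (13.6 to 18.5) in Zeb2KO SMs, at least 49.8-fold higher when WT was set at 3 UMIs (0.319 CPM). It stayed under the 20 CPM minimum and was not called. Dlk1, the paternally expressed coding gene of the region, had 0 UMIs in WT and was at 0.0920 CPM in Zeb2KO.

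Several further genes were near absent from WT SMs. Spint1, which encodes a membrane-bound inhibitor of serine proteases and was the only gene of the epithelial list to reach 20 CPM, was at 2.55 CPM (1.64 to 3.80) in WT and 58.6 CPM (54.1 to 63.3) in Zeb2KO, a log2 ratio of 4.07. Cdkn2a, which encodes the cell cycle inhibitor p16INK4a and the p53 activator p19ARF (chr4:89274471-89294653), had 9 UMIs in WT and 530 in Zeb2KO, or 0.958 and 48.8 CPM, a log2 ratio of 4.67. The 9 WT UMIs came from 9 different cells. Frk, a non-receptor tyrosine kinase named here after its values were seen, had 1 UMI in WT SMs and 470 in Zeb2KO SMs, a log2 ratio of 5.32, with a counting interval of the ratio without a pseudocount from 6.18 to 13.97 on the log2 scale. Without the pseudocount, the ratio of Frk, on 1 WT UMI, lay above that of Meg3, and their counting intervals overlapped, since that of Meg3 reached up to 7.43. Frk was not past 2-fold in colon or liver, with log2 ratios of -0.25 and -0.11.

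**Figure D2:**
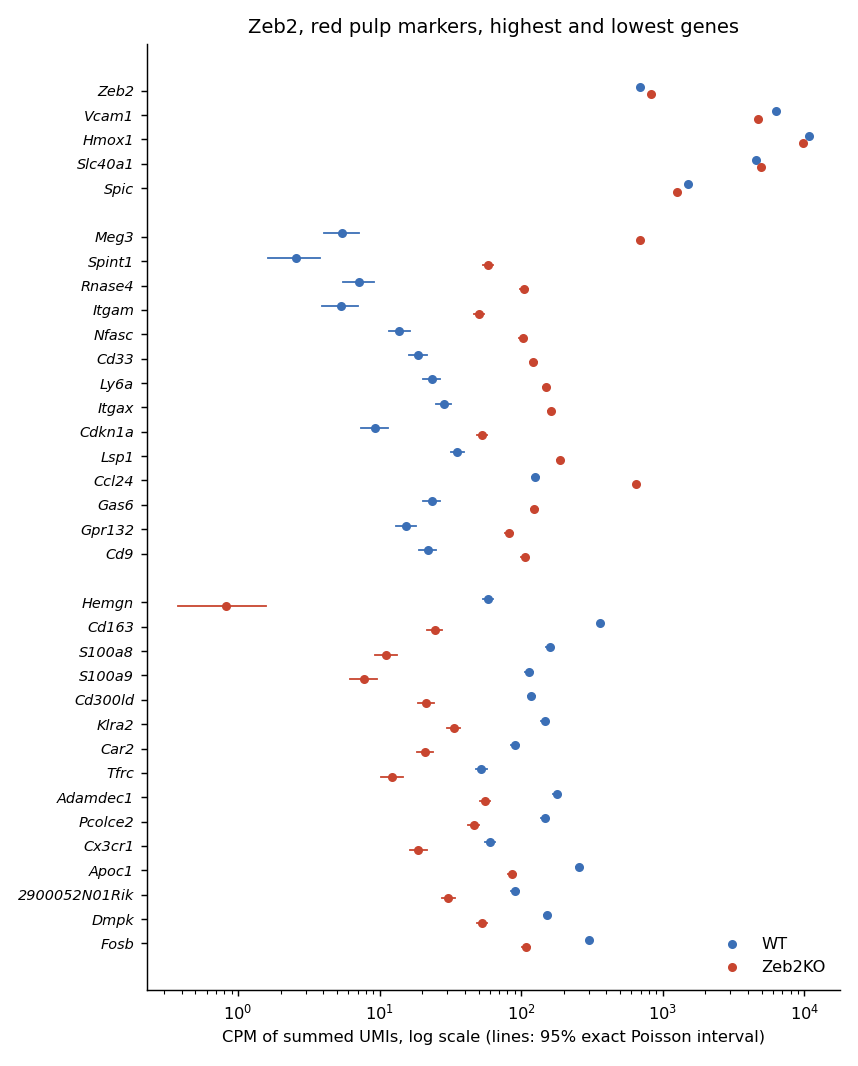
CPM of summed UMIs on a log scale in WT (blue) and Zeb2KO (red) SMs for Zeb2, the red pulp markers and genes among the 15 highest and the 15 lowest log2 ratios of genes of at least 50 CPM; lines are 95% exact Poisson intervals and are hidden by the points where counts are high. Meg3 spans 5.43 to 695 CPM, while the 4 red pulp markers stay within 2-fold.

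Genes of red pulp identity other than the 4 markers were next examined. Of the 20 genes on the red pulp list, all of which reached 20 CPM, 5 were called lower, against 0.926% of all genes, and 0 higher, against 2.11%, and the median log2 ratio was -0.55. Cd163 (chr6:124304656-124330527), the scavenger receptor that takes up haemoglobin bound to haptoglobin, was at 362 CPM (350 to 375) in WT and 24.7 CPM (21.8 to 27.8) in Zeb2KO, 14.7-fold lower. After thinning, 34.8% of WT SMs and 3.32% of Zeb2KO SMs had a Cd163 UMI, against 5.60% and 1.75% of B cell barcodes. Cd163 was thus read in few Zeb2KO SMs, and at a share that lay close to that in B cell barcodes. The other genes called lower were the complement component C6, at 438 and 206 CPM, the collagen gene Col14a1, at 219 and 89.6 CPM, the hyaluronan scavenger receptor Stab2, at 153 and 66.6 CPM, and the procollagen C-endopeptidase enhancer Pcolce2, at 147 and 46.1 CPM. Mrc1, the mannose receptor, was at 1563 and 1026 CPM, Axl at 1247 and 977 CPM, Cd5l at 633 and 532 CPM and Itgad, the integrin alpha D subunit, at 447 and 315 CPM. These 4 genes were lower in Zeb2KO by less than 2-fold. In the barcodes outside the rule, the median log2 ratio of the red pulp list was -0.60. The list was chosen with earlier results of these data known, so that its counts are a description and not independent support. The paper also names C6 and Pcolce2 among the core genes of liver macs. There they had log2 ratios of -2.09 and -1.79, Zeb2KO over WT.

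The genes of haem and iron handling were counted as a list. Of 19 genes considered, 0 were called higher and 2 lower, and the median log2 ratio was -0.14. The 2 were Cd163 and the transferrin receptor Tfrc, at 52.4 CPM in WT and 12.3 CPM in Zeb2KO. Erythroid-marked cells among the WT SMs, described further on, held 50.4% of the WT Tfrc UMIs, and its log2 ratio was -0.77 without SMs that held at least 2 UMIs of other cells' markers, which ended the call. The ferritin subunit genes Ftl1 and Fth1 were at 9953 and 7327 CPM in WT and at 14288 and 9336 CPM in Zeb2KO, log2 ratios of 0.52 and 0.35. The genes for haem breakdown, iron storage and iron export thus stayed within 2-fold, while the haemoglobin receptor did not.

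Markers of the macs at the border of red and white pulp gave a mixed picture. Of 8 marginal zone and metallophilic genes, 4 were considered, of which 2 were called higher and 0 lower, with a median log2 ratio of 0.67 that was -0.09 at a minimum of 50 CPM and -0.05 at 5 CPM. Marco, a scavenger receptor for bacteria of marginal zone macs, was at 214 CPM in WT and 578 CPM in Zeb2KO. Cd209b, the C-type lectin SIGN-R1 of the same cells, was at 3.51 and 42.5 CPM, and 50.6% of its Zeb2KO UMIs lay in 1% of the SMs. Siglec1, the sialoadhesin of metallophilic macs, was at 9.79 and 7.17 CPM and did not reach the minimum level, so that the markers of this border region did not move together. Timd4 was at 64.6 and 54.6 CPM.

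Of the lists with more than 1 gene at 20 CPM, MHC class II, whose products present peptides to CD4+ T cells, had the highest median. Of 9 MHC class II genes considered, 5 were called higher, against 2.11% of all genes, and 0 lower, with a median log2 ratio of 1.15. The invariant chain Cd74 was at 2276 CPM in WT SMs and 5055 CPM in Zeb2KO SMs. The chain genes H2-Aa, H2-Ab1 and H2-Eb1, which form the class II molecules at the cell surface, were at 714, 602 and 457 CPM in WT and at 1857, 1532 and 1290 CPM in Zeb2KO. H2-Oa, a chain of the H2-O molecule that restrains peptide loading, was at 13.7 and 58.7 CPM. The peptide-loading genes H2-DMa and H2-DMb1 were at 142 and 116 CPM in WT and 186 and 160 CPM in Zeb2KO, within 2-fold, and the class II transactivator Ciita was at 7.56 and 15.5 CPM, under the minimum. B cells and dendritic cells also express these genes. After thinning, an H2-Aa UMI was present in 49.4% of WT SMs and 77.4% of Zeb2KO SMs, and in 94.4% and 96.5% of B cell barcodes, while summed B cell markers were at 898 CPM in WT SMs and 790 CPM in Zeb2KO SMs. Outside the rule the median of the class II list was 0.27. Between 2 control liver libraries, neither with a Zeb2 deletion, the 5 called genes also had ratios past 2-fold. Cd74, H2-Aa, H2-Ab1, H2-Eb1 and H2-Oa had log2 ratios of -1.36, -1.25, -1.5, -1.39 and -1.27 there. None of the 18 MHC class I genes considered was past 2-fold, and their median was 0.45, with B2m at 2862 and 4057 CPM.

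Adhesion and migration genes were counted next. Of 10 integrin genes considered, 3 were called higher, against 2.11% of all genes, and 0 lower, with a median log2 ratio of 0.04. Itgam, the CD11b chain of complement receptor 3 (chr7:128062640-128118491), was at 5.32 CPM (3.95 to 7.02) in WT and 50.2 CPM (46.1 to 54.6) in Zeb2KO. Itgax, the CD11c chain, was at 28.3 and 162 CPM, and Itgal, the CD11a chain, at 19.4 and 71.7 CPM. Their shared partner chain Itgb2 was at 243 and 270 CPM, so that the alpha chains and not the beta chain carried the ratios. Of 17 chemokine and adhesion receptor genes considered, 6 were called higher and 1 lower, against 2.11% and 0.926% of all genes, and the median was 0.06. Over the alternatives this median ran from -0.17 to 1.09, with 3 to 9 genes called. The lysolipid and lactate receptor Gpr132 was at 15.4 CPM in WT and 82.0 CPM in Zeb2KO, and the semaphorin co-receptor Nrp2 at 5.22 and 48.9 CPM. The plexins Plxnc1 and Plxnd1 were at 6.92 and 7.77 CPM in WT and at 29.3 and 29.4 CPM in Zeb2KO. The member called lower was Cx3cr1, the fractalkine receptor, at 60.3 CPM in WT and 18.8 CPM in Zeb2KO.

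Other surface proteins among the 15 highest ratios of genes that reached 50 CPM were Cd33, a sialic acid-binding inhibitory receptor, at 18.7 CPM in WT and 122 CPM in Zeb2KO, Ly6a, the stem cell antigen Sca-1, at 23.4 and 149 CPM, the tetraspanin Cd9, at 22 and 106 CPM, and the adhesion molecule Nfasc, at 13.8 and 103 CPM. Lsp1, an actin-binding protein of leukocytes, was at 35.5 and 188 CPM. Siglecf had 0.319 CPM in WT and 13.3 CPM in Zeb2KO, under the minimum for a call. The sort had left out SiglecF-positive cells, so that cells high for this gene may be missing from both libraries. The paper used higher Siglecf, beside Zeb2 and Epcam, to pick out Zeb2-/- cells of the spleen. Siglece, the abundant Siglec of SMs, was at 394 and 278 CPM. Among the lower genes were the Ly49 receptor Klra2, at 147 and 33.3 CPM, and Cd300ld, at 118 and 21.2 CPM. Among the MS4A genes, Ms4a1, which encodes CD20, was at 99.1 and 200 CPM, Ms4a6b at 16.9 and 42.0 CPM and Ms4a6c at 156 and 67.6 CPM, so that 2 members were called higher and 1 lower of 6 considered. The log2 ratio of Ms4a1 ran from 0.49 to 3.19 over the alternatives and was past 2-fold in 10 of 13. Ms4a1 is also a B cell gene, and the 9 B cell markers considered had a median log2 ratio of -0.20, with 0 called.

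Dendritic cell genes, which the gate did not exclude by a marker of their own, were read beside these. Of 7 dendritic cell genes considered, 2 were called higher and 0 lower. Zbtb46, a transcription factor of conventional dendritic cells, was at 4.04 CPM in WT and 38.8 CPM in Zeb2KO, and the peptidase Dpp4 at 7.98 and 47.1 CPM. Flt3 was at 1.60 and 2.85 CPM, Xcr1 at 3.19 and 5.06 CPM, Clec9a at 8.30 and 9.57 CPM, and Cd209a at 3.30 and 1.47 CPM, none of them at 20 CPM. The summed level of the whole list was 395 CPM in WT SMs and 488 CPM in Zeb2KO SMs, against 678 and 551 CPM outside the rule. The monocyte genes Ly6c2 and Ccr2 were at 1.49 and 1.60 CPM in WT and at 1.20 and 1.75 CPM in Zeb2KO. Flt3, Xcr1, Clec9a, Cd209a, Ly6c2 and Ccr2 were thus scarce in both libraries, whereas Zbtb46 and Dpp4 were higher in Zeb2KO SMs. The sort had left out Ly6C-positive cells. Without thinning, 25.1% of WT SMs and 38.8% of Zeb2KO SMs held at least 2 UMIs of the dendritic cell list. For the monocyte list these shares were 12.9% and 22.8%. Shares without thinning also depend on depth, and Zeb2KO SMs were deeper, with a median of 2752 UMIs against 2219.5 in WT.

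Secreted proteins with roles in host defence made up a further group. Slpi, an inhibitor of leukocyte proteases (chr2:164354070-164389095), was the most abundant of them, at 1032 CPM (1011 to 1052) in WT and 3406 CPM (3372 to 3441) in Zeb2KO. After thinning, 58.1% of WT SMs and 88.9% of Zeb2KO SMs had a Slpi UMI, and so did 14.4% and 43.9% of B cell barcodes, so that both shares were higher in the Zeb2KO library. The ribonuclease gene Rnase4 was at 7.13 and 104 CPM, a log2 ratio of 3.70, and the peptidoglycan-binding protein Pglyrp1 at 6.07 and 45.4 CPM. Of 8 antimicrobial and acute-phase genes considered, 3 were called higher and 1, the neutrophil granule gene Camp, lower. Ccl24, a chemokine for eosinophils, was at 126 and 653 CPM, and Gas6, the ligand that bridges apoptotic cells to AXL and MERTK, at 23.3 and 124 CPM. Axl was at 1247 and 977 CPM and Mertk at 600 and 545 CPM, so that the ligand was higher and its receptors were within 2-fold. In the NF-kB and cytokine list, 3 of 19 genes were called higher, Ccl24, Ccl3 and Ltb, and 0 lower. Ccl3 stayed past 2-fold in 8 and Ltb in 9 of 13 alternative settings, at log2 ratios as low as 0.73 and 0.49.

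Antioxidant and lipid genes followed. Of 20 antioxidant genes known as NRF2 targets, 3 were called higher, against 2.11% of all genes, and 0 lower, with a median log2 ratio of 0.61. The cystine transporter Slc7a11 was at 3.83 CPM in WT and 22.9 CPM in Zeb2KO, the glutathione transferase Gstm1 at 69.4 and 181 CPM and the sulfiredoxin Srxn1 at 8.41 and 20.9 CPM. The further genes of this list that were above 0.70 on the log2 scale, and not called, included Gclm at 0.71, Prdx1 at 0.78 and Txnrd1 at 0.91. Of 12 lipid uptake and storage genes, the lipoprotein lipase gene Lpl, at 315 and 724 CPM, and the fatty acid carrier gene Fabp4, at 63.8 and 166 CPM, were called higher and 0 lower. Of 17 LXR receptors and targets, Lpl was called higher and Apoc1, an apolipoprotein at 256 CPM in WT and 85.6 CPM in Zeb2KO, lower, while the receptor gene Nr1h3 was at 344 and 323 CPM. The median of this list, 0.01, lay close to the -0.03 of all genes.

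Cell cycle genes gave ratios on both sides. Of 12 genes of CDK inhibitors, D cyclins and their partners, 2 were called higher, against 2.11% of all genes, and 0 lower. Beside Cdkn2a this was Cdkn1a, which encodes the inhibitor p21, at 9.26 CPM (7.42 to 11.4) in WT and 53.3 CPM (49.0 to 57.8) in Zeb2KO. The neighbour of Cdkn2a, Cdkn2b, was at 1.28 and 6.90 CPM, under the minimum. Trp53 was at 62.7 and 66.2 CPM and Mdm2, which p53 activates, at 55.8 and 59.3 CPM. Of 9 genes of dividing cells, Mki67, Top2a and Rrm2 were called lower, against 0.926% of all genes, at 25.0, 42.5 and 24.7 CPM in WT and at 10.2, 18.3 and 10.5 CPM in Zeb2KO. Erythroid-marked cells held 63.8% of the WT UMIs of Mki67, 44.6% of those of Top2a and 57.8% of those of Rrm2. When SMs with any UMI of a defining marker of another cell type were left out, the log2 ratios of these 3 genes were 1.07, 0.24 and 0.04. All 3 ratios were thus above 0, and only that of Mki67 was past 2-fold.

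Immediate early genes respond within minutes to stimulation or stress. Of 25 considered, 8 were called lower, against 0.926% of all genes, and 0 higher, with a median log2 ratio of -0.61, and none was past 3-fold. Fos was at 2195 CPM in WT and 930 CPM in Zeb2KO, Jund at 836 and 347 CPM, Klf2 at 607 and 255 CPM, Dusp2 at 341 and 125 CPM and Fosb at 303 and 108 CPM. Atf3 was at 174 and 73.4 CPM, and the heat shock genes Hspa1a and Hspa1b were at 70.1 and 54.1 CPM in WT and at 32.1 and 19.4 CPM in Zeb2KO. Jun, at 576 and 496 CPM, and Egr1, at 170 and 128 CPM, were within 2-fold, so that the AP-1 genes were not lower to the same degree. Barcodes outside the rule had a median of -0.51 for the same list, with Fos at 760 and 483 CPM and Jund at 711 and 437 CPM. The median was thus below 0 also in cells that were not called SMs. In 2 control liver libraries, neither with a Zeb2 deletion, Fos differed by a log2 ratio of -1.45 and Fosb by -1.61. Hspa1a and Hspa1b differed there by -3.44 and -2.81. Jund, Dusp2, Klf2 and Atf3 were within 2-fold there, at -0.2, -0.43, -0.5 and -0.67.

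**Figure D3:**
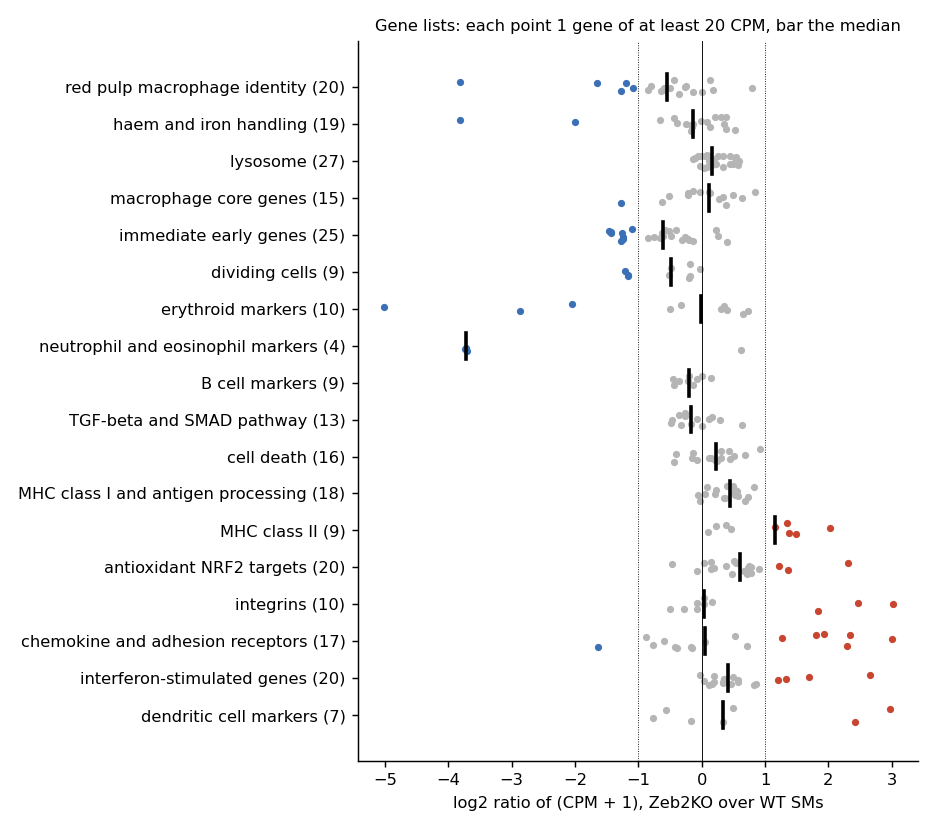
Log2 ratio of CPM + 1, Zeb2KO over WT SMs, for every gene of at least 20 CPM in 18 of the gene lists, with the number of genes in brackets, the median as a bar and genes past 2-fold in red or blue. The medians run from -3.72 for the neutrophil and eosinophil markers to 1.15 for MHC class II, and the 27 lysosome genes stay between the dotted lines.

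The remaining lists stand beside 2.11% of all genes called higher and 0.926% called lower. Of 20 interferon-stimulated genes, Oasl2, Ifi44, Ifitm2 and Rtp4 were called higher and 0 lower, with a median of 0.41. None of the 27 lysosome genes, the 16 cell death genes or the 13 genes of the TGF-beta and SMAD pathway was past 2-fold. Their medians were 0.17, 0.23 and -0.17, and the receptor gene Tgfbr2 was at 230 and 231 CPM. Of 24 mac transcription factors, Cbfa2t3 was called higher and Klf2 lower. Of 15 core mac genes 1, the lipopolysaccharide co-receptor Cd14, was called lower, at 190 and 77.6 CPM. The gene of the CSF1 receptor, Csf1r, on which macs depend for survival, was at 1645 and 1063 CPM, and the gene of the F4/80 antigen, Adgre1, at 688 and 595 CPM. Fcgr1, which carries the Cre in the Zeb2KO mice and encodes the sorted CD64, was at 72.3 CPM in WT and 50.4 CPM in Zeb2KO. Of 7 Fc receptor genes, the inhibitory Fcgr2b was called higher, at 10.0 and 26.2 CPM. Of 8 complement genes outside C1q, Cd55, Itgam and Itgax were called higher and C6 lower. Of 15 scavenger and C-type lectin receptors, Marco and Cd209b were called higher and Stab2 lower. Cd163, also a scavenger receptor, was counted in the red pulp and haem lists and not in this one. Of 9 efferocytosis genes Gas6 was called higher and Stab2 lower. Of 14 S100 and annexin genes, S100a11 and Anxa3 were called higher, at 26.7 and 46.8 CPM in WT and at 93.6 and 124 CPM in Zeb2KO, and S100a8 and S100a9 lower. Cd33 was the 1 gene of 3 Siglecs considered that was called.

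Some of the largest ratios rested on few cells. The neutrophil genes S100a8, S100a9 and Camp were at 159, 114 and 30.7 CPM in WT SMs and at 11.1, 7.73 and 1.38 CPM in Zeb2KO SMs. In WT, 2 cells held 94.6%, 95.3% and 94.1% of these UMIs, and 1 of them had 1376 UMIs of S100a8. After thinning, 1.33% of WT and 1.81% of Zeb2KO SMs had an S100a8 UMI, so that the share of cells did not show the ratio. Ly6g was at 0.319 and 0.0920 CPM and Epx, an eosinophil gene, had 0 UMIs in both. Outside the rule S100a8 was at 24.7 CPM in WT and 872 CPM in Zeb2KO, the opposite order. The summed neutrophil and eosinophil list was at 349 and 74.9 CPM in SMs and at 89.2 and 1696 CPM outside the rule.

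The erythroid genes gave the lowest ratio of all. Hemgn, a nuclear protein of blood progenitors and erythroblasts, was at 58.3 CPM (53.5 to 63.4) in WT and 0.828 CPM (0.379 to 1.57) in Zeb2KO, a log2 ratio of -5.02. Car2 was at 90.3 and 21 CPM, and Slc4a1, the band 3 anion exchanger of red cells, at 31.6 and 3.50 CPM. There were 173 erythroid-marked SMs in WT (4.75%) and 69 in Zeb2KO (2.10%), defined by at least 2 UMIs over a set of erythroid genes that included Hemgn, Slc4a1, Klf1, Rhag, Car1, Car2 and Alas2. They held 92.2% of the WT Hemgn UMIs, 86.2% of those of Slc4a1, both of which helped to define them, and 6.37% of those of Cd163, which did not. Whether these UMIs came from the SMs themselves or from other cells was not tested. Of the 10 erythroid genes considered, these 3 were called lower and 0 higher, and the median was -0.01. This list depended on the processing, with 9 genes called and a median of -2.05 at a minimum of 5 CPM, and a median of 0.36 at a minimum of 50 CPM. It had 0 genes called once SMs with markers of other cells were left out, but Hemgn, Car2 and Slc4a1 were among those markers. Without SMs with any UMI of a defining marker, an alternative chosen after seeing the data, their log2 ratios were thus fixed at 0.0. They were past 2-fold in 12 of 13 alternatives. The summed erythroid list, mostly haemoglobin, was at 11890 CPM in WT SMs and 16719 CPM in Zeb2KO SMs, and at 9621 and 55594 CPM outside the rule, the opposite order to Hemgn. On the higher side, the plasma cell gene Jchain was at 40.6 and 140 CPM, with 511 of its 1525 Zeb2KO UMIs in 1 cell, and the platelet gene Pf4 was at 9.05 and 30.6 CPM. More than 50% of the UMIs lay in 1% of the SMs of the library with the higher level for 5 of the 130 genes called higher and 12 of the 57 called lower. The 5 were Jchain (94.0%), Pf4 (84.4%), Ccl3 (59.1%), Slc7a11 (54.2%) and Cd209b (50.6%). Summed T and NK cell markers were at 53.4 CPM in WT SMs and 39.7 CPM in Zeb2KO SMs, megakaryocyte markers at 144 and 134 CPM, plasma cell markers at 174 and 263 CPM, monocyte markers at 265 and 375 CPM, and stromal and endothelial markers at 287 and 202 CPM.

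The share of SMs with a UMI was compared after thinning to see how widely a gene was read. Ccl24 was present in 15.6% of WT SMs and 48.2% of Zeb2KO SMs, against 0% and 7.02% of B cell barcodes. Itgax was present in 4.39% and 19.6%, against 1.60% and 0%, and Itgam in 0.739% (0.452 to 1.14) and 6.27% (5.39 to 7.25), against 0% and 1.75%. For 0 of 125 and 0 of 57 B cell barcodes the exact interval reaches 2.91% and 6.27%. Without thinning the shares of SMs were 21.1% and 64.9% for Ccl24, 6.81% and 32.6% for Itgax, and 1.26% and 11.9% for Itgam. Fos was present in 76.8% of WT SMs and 54.6% of Zeb2KO SMs after thinning, and in 51.2% and 38.6% of B cell barcodes. For Zeb2 the shares were 61.8% and 62.2%, against 18.4% and 22.8%. Ccl24, Itgax and Itgam were thus read in larger shares of Zeb2KO SMs than of WT SMs, and Fos in a smaller share.

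Whether the genes with large ratios lay in the same Zeb2KO cells was examined by splitting the thinned SMs by a UMI of Meg3. In Zeb2KO, 1163 SMs (42.9%) had a Meg3 UMI and 1549 did not, with median depths of 3197 and 3257 UMIs before thinning. Cd163 was at 21.8 CPM (15.4 to 29.9) with and 28.4 CPM (22 to 36.1) without Meg3, and at 382 CPM in all WT SMs. Slpi was at 3587 and 3323 CPM, against 1010 CPM in WT. H2-Aa was at 1852 and 1762 CPM, against 681 CPM in WT, and Ccl24 at 688 and 635 CPM, against 133 CPM. Zeb2KO SMs without a Meg3 UMI thus differed from WT in these genes by about as much as those with one. Vcam1, at 5535 CPM with and 4641 CPM without, Spic, at 1543 and 1173 CPM, and Cd33, at 154 and 109 CPM, were higher in cells with Meg3. A cell without a Meg3 UMI may still express it below the depth of 1500 UMIs.

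The 170 Zeb2KO SMs (6.27%) with an Itgam UMI had another profile, at a median depth of 3317.5 UMIs before thinning against 3232 for the rest. Hmox1 was at 5627 CPM (5340 to 5926) in them and 11013 CPM (10908 to 11118) in the 2542 others, Vcam1 at 3396 and 5133 CPM and Cd5l at 278 and 577 CPM. Apoc1 was at 3.92 and 84.7 CPM. Hmox1, Vcam1, Cd5l and Apoc1 were thus lower in the SMs with Itgam, while the intervals overlapped for Cd163, at 19.6 CPM (6.37 to 45.8) and 26.0 CPM (21.1 to 31.6). Cd33 was at 318 CPM with Itgam and 115 CPM without, H2-Aa at 3251 and 1704 CPM, Rnase4 at 227 and 104 CPM and Zeb2 at 1467 and 793 CPM. Nfasc, at 35.3 and 112 CPM, Slpi, at 1706 and 3552 CPM, and Cdkn2a, at 27.5 and 59.3 CPM, went the other way. Genes higher in Zeb2KO SMs therefore did not all lie in the cells with Itgam. The share with a Meg3 UMI was 54.1% (46.3 to 61.8) in SMs with Itgam and 42.1% (40.2 to 44.1) in those without. In WT, 20 thinned SMs had an Itgam UMI, with Hmox1 at 7467 CPM in them and 11004 CPM in the other WT SMs, Vcam1 at 5300 and 6573 CPM and H2-Aa at 1800 and 673 CPM, the same order as in Zeb2KO. For Zeb2, at 567 and 727 CPM, Cd5l, at 733 and 629 CPM, Apoc1, at 333 and 261 CPM, and Cd33, with 0 UMIs and at 19.8 CPM, the WT intervals with and without Itgam overlapped, so that no order could be read in these 20 cells. Such intervals do not cover the spread between cells. The order of Hmox1, Vcam1 and H2-Aa in WT thus also rests on 20 cells. S100a8 was at 12333 CPM in the 20 cells and 15.9 CPM in the other WT SMs, against 15.7 and 11.8 CPM in Zeb2KO, but 10.0% of the 20 cells had an S100a8 UMI, so that 2 cells set this level.

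**Figure D4:**
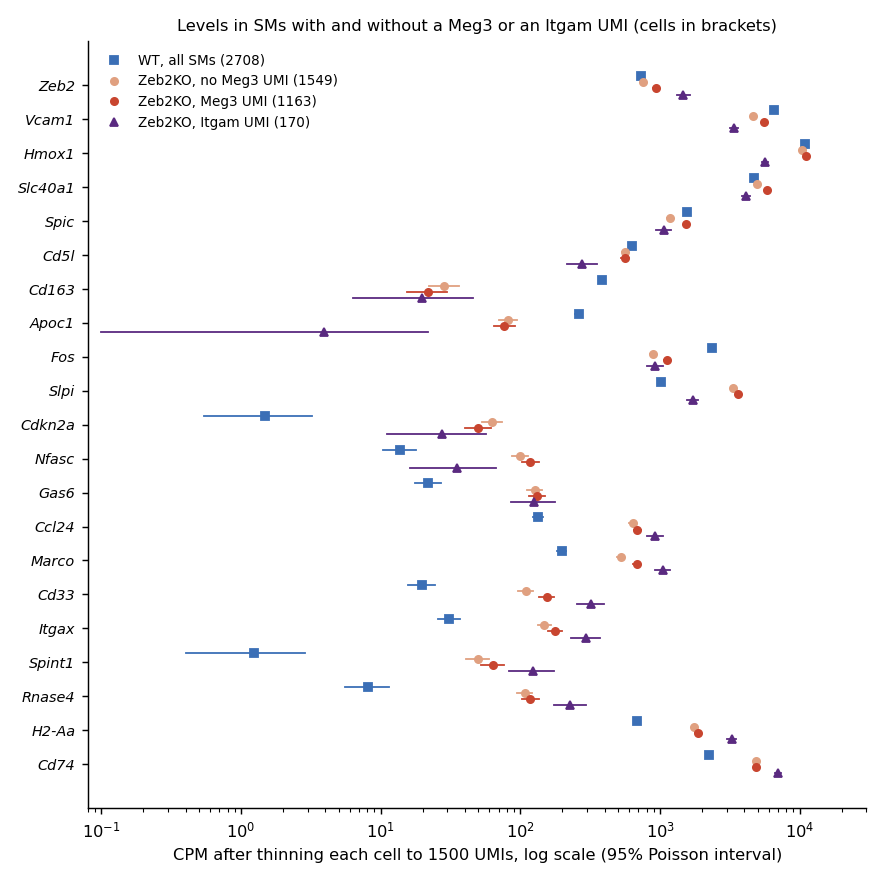
CPM after thinning each SM to 1500 UMIs, on a log scale with 95% Poisson intervals, for all WT SMs (squares), Zeb2KO SMs without and with a Meg3 UMI (circles) and Zeb2KO SMs with an Itgam UMI (triangles). Cd163 sits near 21.8 to 28.4 CPM in Zeb2KO SMs whether or not they had Meg3, against 382 CPM in WT, and Hmox1 is at 5627 CPM in the 170 cells with Itgam.

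The same rule and call were applied to macs of colon (CMs) and liver (Kupffer cells, KCs), again with 1 library per genotype. CMs came from the same gate and Cre, and KCs were sorted on CLEC4F. The rule kept 4988 of 4989 WT and 4385 of 4390 Zeb2KO barcodes in colon, and 4602 of 4645 and 4672 of 4717 in liver. It thus left out few barcodes there, and any other cells in those sorts are part of the sums. For the Zeb2KO liver library the genotype label gives Fcgr1-cre, whereas Clec4f-cre is described for KCs elsewhere in the study, so that its Cre is uncertain. Of 5271 genes considered in CMs, 1.57% were past 2-fold, 1.01% higher and 0.569% lower, and of 5508 in KCs 4.67%, with 3.63% higher and 1.03% lower. Between 2 control liver libraries, the one used for the KC comparison and that of Nr1h3fl/fl mice, 1.45% of 5593 genes were past 2-fold, 0.483% higher and 0.965% lower, with no Zeb2 deletion on either side. The KC comparison and the control comparison share that control library, so that their values are only set side by side.

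Of the 130 genes called higher in SMs, 86 were considered in CMs, where 13 were higher and 3 lower, with a median of 0.31. The 13 are 15.1% of those 86 and 24.5% of the genes higher in CMs, and they include Lsp1, Itgal, Ly6a, H2-Oa, Ltb and Ms4a1. In KCs, 90 of the 130 were considered, of which 46 were higher and 1 lower, with a median of 1.02. These 46 are 51.1% of the 90 and 23% of the genes higher in KCs. In the pair of control livers, 61 of the 130 were considered, of which 1 was higher and 10 lower, with a median of -0.10. Of all genes there, 0.483% were higher and 0.965% lower. Genes called higher in SMs were thus past 2-fold more often than all genes also where neither library had a Zeb2 deletion. Of the 57 genes called lower in SMs, 31 were considered in CMs, with 0 higher and 3 lower (9.68%, and 10.0% of the genes lower in CMs), among them Cd163 and Sox4. In KCs 35 were considered, with 8 higher and 6 lower (17.1%, and 10.5% of the genes lower in KCs), the latter including Cd163, Apoc1, Pcolce2, Cd300ld and C6. In the control livers 32 were considered, with 0 higher and 4 lower, against 0.965% of all genes lower there. Cd163 was the gene called lower in all 3 tissues.

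For single genes the tissues differed. Meg3 was at 0.113 CPM in control KCs and 45.0 CPM in Zeb2KO KCs, a log2 ratio of 5.37, and at 23.5 and 22.1 CPM in CMs. Cd163 was at 330 and 52.6 CPM in KCs and at 80.2 and 28.4 CPM in CMs. Rnase4 was at 5.11 and 97.6 CPM in KCs and at 229 and 330 CPM in CMs, and Itgax at 3.04 and 32.5 CPM in KCs and at 82.0 and 83.5 CPM in CMs. In CMs, Meg3, Rnase4 and Itgax were thus read in the control library already and stayed within 2-fold. H2-Aa was at 3261 and 3886 CPM in KCs and at 7757 and 5104 CPM in CMs, so that it was past 2-fold in SMs and within it in the other tissues, while between the control livers H2-Aa had a log2 ratio of -1.25 and Cd74 of -1.36. Ccl24 was at 964 and 1065 CPM in KCs and at 83.4 and 64.5 CPM in CMs. Slpi was at 260 and 54.8 CPM in KCs and at 0.203 CPM in the second control liver, so that it differed more between the control livers than between KC genotypes. The differences between tissues were not tested.

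**Figure D5:**
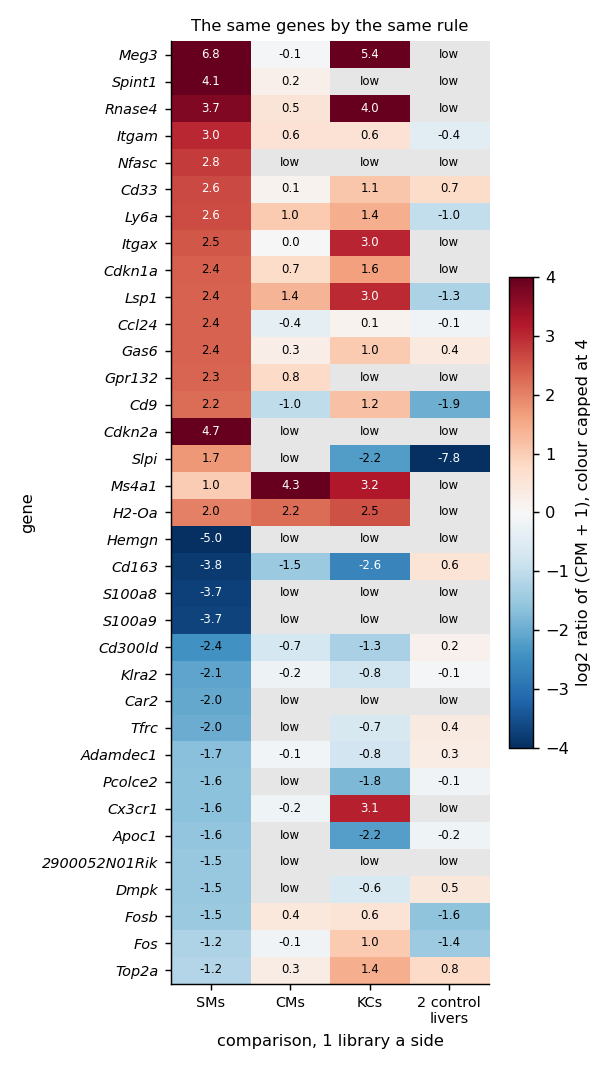
Log2 ratio of CPM + 1 for the named genes in SMs, CMs and KCs, Zeb2KO over WT, and between the 2 control liver libraries, with the number printed in each cell, the colour capped at 4, and "low" where the gene was under 20 CPM in both libraries. Meg3 is at 6.76 in SMs, -0.09 in CMs and 5.37 in KCs, and Cd163 is below -1 in all 3 tissues and at 0.55 between the control livers.

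Promoters were searched for the E-box that zinc-finger proteins of the ZEB family are known to bind, CACCTG, or its reverse complement CAGGTG. The RefSeq windows of 300 bases run from 250 bases before to 50 after each start site (GRCm38.p6). Of the 130 genes called higher in SMs, 98 had a window and 24 of these (24.5%) held the E-box, against 5 of 41 (12.2%) for genes called lower and 909 of 4806 (18.9%) for all genes considered. Counted over windows, since some genes have several, the shares were 19.7% of 132, 11.9% of 42 and 16.1% of 6222. A match is a description of the sequence and not a site of binding. Windows of 4 genes are given as examples of where the motif lies, and not of how often genes with large ratios held it. Each runs 5′ to 3′ on the strand of the gene, with the E-box in capitals and positions giving its first base. Slpi (chr2:164356458-164356757, minus strand) holds it at -45 and 22 relative to the start site, Cd9 (chr6:125494711-125495010, minus strand) at -73, and Fosb (chr7:19309996-19310295, minus strand), which was lower, at -153 and -146. The first Meg3 window (chr12:109540746-109541045, plus strand) holds none. Of the other genes called higher whose windows were read singly, Cdkn1a held it in a window. Spint1, Rnase4, Itgam, Nfasc, Cd33, Itgax, Gas6, Gpr132, H2-Aa, Cdkn2a and Marco held none. Of the other genes called lower and read in this way, Hemgn, S100a9, Tfrc and Dmpk held it in a window. Cd163, S100a8, Cd300ld, Klra2, Pcolce2, Cx3cr1, 2900052N01Rik and Fos held none.
Slpi: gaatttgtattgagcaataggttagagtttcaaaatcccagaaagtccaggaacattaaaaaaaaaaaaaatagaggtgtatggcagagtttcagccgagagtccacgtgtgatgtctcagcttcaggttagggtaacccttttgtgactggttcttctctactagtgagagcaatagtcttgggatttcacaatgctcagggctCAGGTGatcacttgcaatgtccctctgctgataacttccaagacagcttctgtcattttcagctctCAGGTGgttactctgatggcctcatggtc
Cd9: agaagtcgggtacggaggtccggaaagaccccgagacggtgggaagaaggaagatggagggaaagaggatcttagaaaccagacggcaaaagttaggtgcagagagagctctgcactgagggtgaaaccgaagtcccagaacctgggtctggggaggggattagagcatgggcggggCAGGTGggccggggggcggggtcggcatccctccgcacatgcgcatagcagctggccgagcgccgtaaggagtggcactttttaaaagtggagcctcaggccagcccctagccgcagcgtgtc
Fosb: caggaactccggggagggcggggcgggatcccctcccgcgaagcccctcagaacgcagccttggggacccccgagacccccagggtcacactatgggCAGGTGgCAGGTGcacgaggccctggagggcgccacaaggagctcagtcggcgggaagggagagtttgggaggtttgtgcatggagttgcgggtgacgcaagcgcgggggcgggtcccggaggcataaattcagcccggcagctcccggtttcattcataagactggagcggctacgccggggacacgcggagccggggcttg
Meg3: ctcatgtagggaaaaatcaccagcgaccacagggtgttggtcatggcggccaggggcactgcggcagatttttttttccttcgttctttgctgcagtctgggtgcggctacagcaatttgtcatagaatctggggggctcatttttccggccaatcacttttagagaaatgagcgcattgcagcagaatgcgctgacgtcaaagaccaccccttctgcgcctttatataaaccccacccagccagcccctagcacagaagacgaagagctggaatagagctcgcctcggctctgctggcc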

How the data were processed

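Single-cell RNA sequencing (10x Genomics, 3′ ends) was performed on sorted splenic macs. The authors aligned reads to mm10 with Cell Ranger and deposited UMI counts per gene and barcode, 27998 genes in each of 11 libraries. The deposited counts were used without normalization. UMIs of the barcodes that met the C1q rule were summed per library and divided by their total to give CPM, and log2 ratios used a pseudocount of 1 CPM. A gene was considered at 20 CPM or more in either library and called past 2-fold. Each group was 1 library, so no test, p-value or adjustment was computed. Intervals are exact Poisson (CPM), exact conditional binomial (ratios) and Clopper-Pearson (shares), all at 95%. Barcodes were thinned to 1500 UMIs without replacement for shares and co-detection. No doublet caller was run, and leaving out the 5% of SMs with the most UMIs was tried instead. The code was tested on simulated counts.

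The members and the 39 gene lists were chosen with earlier results of these data known, and 11 listed genes were not analysed here. Named genes were Zeb2, the 4 red pulp markers, the 15 highest and 15 lowest log2 ratios among genes of at least 50 CPM (C1q, mitochondrial, sex-linked, immunoglobulin and haemoglobin genes left out), and called or abundant list members. Some genes that these rules name are not reported here. Gene positions are from GENCODE M21 and promoters from RefSeq (GRCm38.p6). The number of unused columns of per-sample values was 0. Python 3.11.15, numpy 2.4.6, scipy 1.17.1, pandas 2.3.3 and, for scaling alternatives only, edgeR 4.0.16 were used.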

Additional observations from a re-analysis of the deposited data

Results flagged for a closer look

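Some genes called in SMs were past 2-fold in the opposite direction in another tissue. These differences between tissues were not tested, since each side was 1 library. In CMs, Cd9, Lpl and Fabp4 were lower in Zeb2KO, with log2 ratios of -1.01, -1.02 and -1.46, whereas all 3 were higher in SMs. In KCs, Slpi was lower (-2.23) and Cx3cr1 higher (3.1), the reverse of SMs, although Slpi also had a log2 ratio of -7.76 between the 2 control livers. The dividing-cell genes Mki67, Top2a and Rrm2 were higher in Zeb2KO KCs by 1.47, 1.45 and 1.62, and the immediate early genes Fos, Atf3 and Dusp2 by 1.04, 1.47 and 1.03, whereas these 6 genes were called lower in Zeb2KO SMs. For Mki67, Top2a and Rrm2 the log2 ratios in SMs were 1.07, 0.24 and 0.04 when SMs with a defining marker of other cells were left out. Only Mki67 was then past 2-fold.

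Barcodes of the Zeb2KO spleen library that did not meet the C1q rule also held red pulp transcripts, with the red pulp list summing to 4878 CPM. In these barcodes the neutrophil genes Camp, Ngp, S100a8 and S100a9 were at 114, 110, 872 and 553 CPM, against 0.575, 1.15, 24.7 and 28.8 CPM in the WT library. Meg3 was at 122 CPM, against 3.45 CPM, and Ccl24 at 93.3 CPM, against 16.1 CPM.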

How the results depend on the processing

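With 130 genes called higher and 57 lower, the minimum level and the fold set the counts. They were 260 and 154 at a minimum of 5 CPM, 61 and 32 at 50 CPM, 366 and 263 with no minimum, and 53 and 20 for a 3-fold call. All other alternatives gave counts within 1.5 times, with 105 to 164 genes higher and 46 to 80 lower: C1q UMIs of 1 or 10, the 3 median absolute deviation filter, SMs without other cell markers, SMs without the deepest 5%, thinning, the mean over cells, TMM or RLE factors, another total, and pseudocounts of 0.1 or 5. Of the 84 named genes called, 63 were past 2-fold under each of 13 alternatives. The others were C6, Camp, Car2, Cbfa2t3, Ccl3, Cd55, Cd74, Hemgn, Jchain, Ltb, Mki67, Ms4a1, Ms4a6b, Pf4, Rrm2, S100a8, S100a9, Slc4a1, Srxn1, Tfrc and Top2a. Among them, S100a8 moved to 0.62, within 2-fold, without SMs holding at least 2 UMIs of other cells' markers, S100a8 being such a marker. Another alternative, chosen after seeing the data, left out SMs with any defining marker of other cells. There Mki67, Top2a and Rrm2 turned direction to 1.07, 0.24 and 0.04, and only Mki67 was past 2-fold. Over the alternatives the median log2 ratio ranged from 0.94 to 1.42 for MHC class II, from -0.58 to -0.49 for the red pulp list and from -0.68 to -0.55 for immediate early genes. At 3-fold the genes called fell from 5 to 1 for MHC class II, from 5 to 2 for the red pulp list and to 0 for immediate early genes. No paired analysis was possible because each genotype was 1 library without a replicate number, and for the same reason no library could be left out. Sums of 9395684 and 10871106 UMIs make counting intervals narrow, and the variation between mice was not measured.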
